A study of Mus musculus with 27 samples.

Results

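The histone deacetylases described here are Hdac1, Hdac2, Hdac3, Hdac4, Hdac5, Hdac6, Hdac7, Hdac8, Hdac9 and Hdac11, which are 10 of the 56691 genes in a count table of sorted mouse microglia. They were chosen by name, not by level, and each symbol was matched to 1 identifier of the table. RNA was sequenced in 27 libraries, 3 in each of 9 groups, in a study of gut microbes and the response of microglia to bleeding in the brain (intracerebral hemorrhage, ICH). All mice are labelled WT. Mice given an antibiotic cocktail (ABX) were injected with collagenase, which breaks down vessel walls and causes the bleed, and sampled at day 3 or day 7, and ABX shams received PBS. Germ-free (GF) mice, raised without microbes, and specific pathogen-free (SPF) mice with no microbial treatment made up the same 3 groups each. All shams are labelled day 7, so a comparison of ICH at day 3 with sham also differs in day. The microglia were sorted from tissue around the hematoma, and nothing in the labels says which libraries came from separate animals, so p-values measure only the spread between these libraries.

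Histone deacetylases remove acetyl groups from lysines of histones and other proteins, and gene repression is what they are best known for. Class I enzymes (Hdac1, Hdac2, Hdac3 and Hdac8) are mostly nuclear, and all of them but Hdac8 work inside large corepressor complexes. Class IIa proteins (Hdac4, Hdac5, Hdac7 and Hdac9) move between nucleus and cytoplasm when kinases phosphorylate them and 14-3-3 proteins bind them, Hdac6 of class IIb deacetylates tubulin in the cytoplasm, and Hdac11 is the lone class IV enzyme. Butyrate, a short-chain fatty acid made by gut bacteria, inhibits several of these enzymes, and loss of Hdac1 and Hdac2 together is known to alter microglial development in mice. Messenger RNA levels, measured here, do not report enzyme activity.

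Promoters are shown for Hdac2, the only member at 1 CPM (a count scaled to library size) or more in all 27 libraries, and for Hdac9, the member with the clearest differences between groups, because its counts cannot separate its 2 start sites. Sequences are from RefSeq on GRCm38.p6, run 5′ to 3′ on the gene's own strand, and cover 250 bases before the start and 50 after it. Capitals mark GGGCGG, known as the GC box, the CCAAT box, the GAGGAA core bound by the myeloid factor PU.1, or the TATAAA element, searched on both strands, with the reverse complement capitalised where the match is on the other strand. Hdac2 lies on the plus strand at chr10:36974294-36974593, and both Hdac9 starts lie on the minus strand, the downstream one at chr12:34528840-34529139 and the upstream one at chr12:34917046-34917345.
Hdac2: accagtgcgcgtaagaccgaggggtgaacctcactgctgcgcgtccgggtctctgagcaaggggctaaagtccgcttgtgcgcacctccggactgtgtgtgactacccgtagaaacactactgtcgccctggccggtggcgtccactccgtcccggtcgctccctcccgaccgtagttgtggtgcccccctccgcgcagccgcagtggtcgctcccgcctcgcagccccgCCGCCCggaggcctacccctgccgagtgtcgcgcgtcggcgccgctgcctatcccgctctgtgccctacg
Hdac9, downstream start: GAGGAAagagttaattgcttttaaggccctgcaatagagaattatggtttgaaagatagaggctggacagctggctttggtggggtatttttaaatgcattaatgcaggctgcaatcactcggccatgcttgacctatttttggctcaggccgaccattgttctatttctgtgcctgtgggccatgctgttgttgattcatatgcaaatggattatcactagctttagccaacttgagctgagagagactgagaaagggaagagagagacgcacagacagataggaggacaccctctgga
Hdac9, upstream start: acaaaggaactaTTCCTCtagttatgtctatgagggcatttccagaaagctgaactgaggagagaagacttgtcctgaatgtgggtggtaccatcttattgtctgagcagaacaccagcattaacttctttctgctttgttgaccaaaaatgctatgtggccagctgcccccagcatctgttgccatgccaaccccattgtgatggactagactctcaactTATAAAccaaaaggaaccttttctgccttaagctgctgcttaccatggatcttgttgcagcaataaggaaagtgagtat
The Hdac2 promoter was 69.7% G or C with 36 CpG dinucleotides, against a median of 52.7% and 7 CpG over all 32851 promoters of that length. It held 1 GGGCGG, a motif found in 35.7% of all promoters. The Hdac9 promoters, 388.2 kb apart, were 45.3% and 44.0% G or C with 3 and 0 CpG. Each held 1 GAGGAA, which 28.3% of all promoters hold, and the upstream start also held 1 TATAAA, which 13.6% hold. Neither motif match shows that a factor binds there. Of the 10 members, 8 had a promoter in the RefSeq table.

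Depth was 41664864 to 79090595 counts per library, and a count of 0 allowed at most 3 counts, which is 0.0338 to 0.142 CPM depending on the library. CPM is a count scaled to a common library size, here with TMM factors. Depth did not set the libraries apart, but the number of genes with a count did. In 7 libraries (ABX ICH day 7 replicates 1 and 2, all 3 of GF ICH day 7, and GF sham replicates 1 and 2) it was 9185 to 11925, and in the other 20 it was 13536 to 18408. Summed CPM of 10 microglia markers was 21300 to 113700 over all libraries, and none of the 10 was at 0 in a whole group. The 8 neuron markers summed to 0 to 33.6 CPM.

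Members at 1 CPM or more numbered 1 to 4 (median 3) in the 7 libraries with few detected genes and 4 to 9 (median 7) in the other 20. Of the 9 members that passed the filter on low counts, 5 (Hdac4, Hdac5, Hdac6, Hdac8 and Hdac9) were under 1 CPM in all 7 libraries. Among all 17573 tested genes 37.4% were under 1 CPM in all 7, so the members' count stands against a large background. In bulk libraries, fewer cells that express a gene and less of its RNA per cell cannot be told apart. Some results that rest on the 7 libraries are given below with and without them. Others are given only with them.

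**Figure D1:**
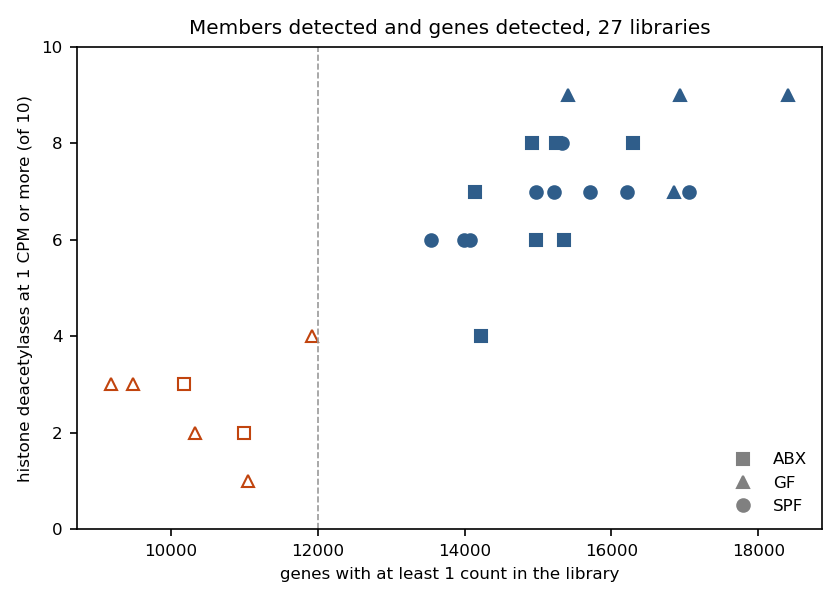
Number of the 10 histone deacetylases at 1 CPM or more (vertical axis) against the number of genes with at least 1 count (horizontal axis) in 27 libraries, with shapes for ABX, GF and SPF mice and open symbols for the 7 libraries left of the dashed line at 12000 genes. The 7 open symbols lie between 1 and 4 members, and the 20 filled ones between 4 and 9.

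Class I enzymes made up 87.2% to 100% of the summed CPM per kilobase of exons of the 10 members (median 97.1%). Levels of different genes are compared only per kilobase. Over the 20 libraries with more detected genes, Hdac1 averaged 32.1 ± 10.97 CPM per kilobase, Hdac2 14.0 ± 11.5 and Hdac3 7.53 ± 2.86 (SD, n = 20). Hdac1 was above Hdac2 in 20 of these 20 libraries, Hdac2 above Hdac3 in 15 and Hdac3 above Hdac8 in 19. Further down, neighbours changed places often. Hdac8 averaged 2.00 ± 1.82 CPM per kilobase, Hdac9 1.10 ± 0.695, Hdac6 0.853 ± 1.46, Hdac5 0.402 ± 0.349, Hdac11 0.330 ± 0.736 and Hdac4 0.205 ± 0.202. Hdac6 was above Hdac5 in 10 of 20 libraries and Hdac11 above Hdac4 in 8 of 20. Hdac7 was nearly undetected at 0.0103 ± 0.0361 CPM per kilobase. In the 7 other libraries the order did not hold, with Hdac1 above Hdac2 in 2 of 7.

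**Figure D2:**
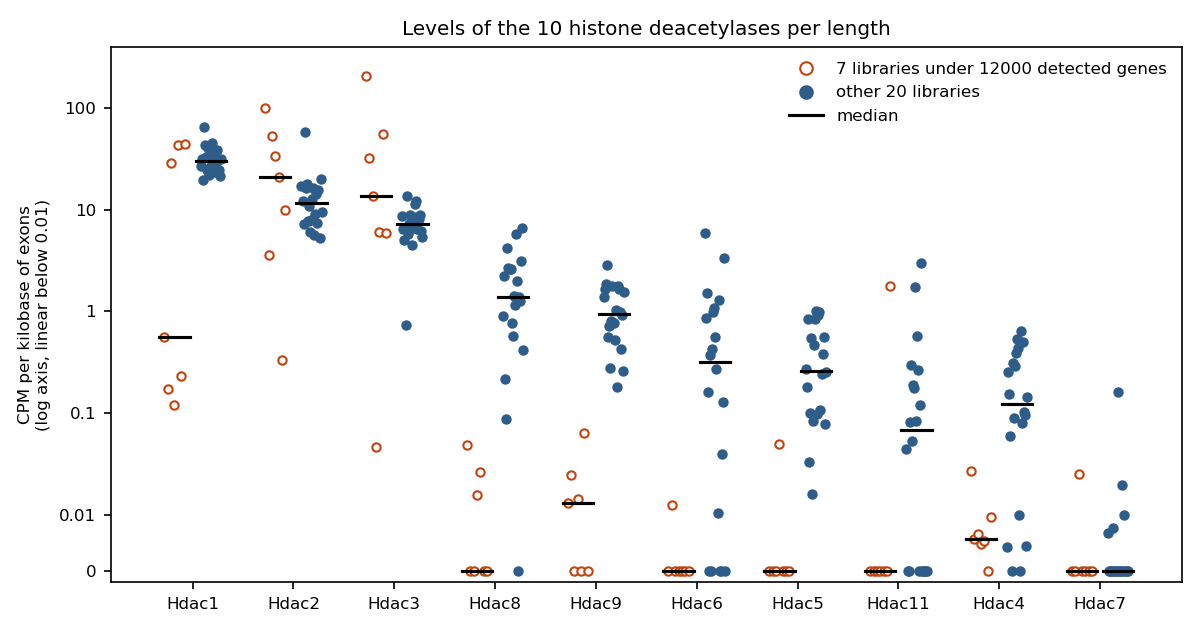
CPM per kilobase of exons (log axis, linear below 0.01) of the 10 members, for the 7 libraries under 12000 detected genes (open, left) and the other 20 (filled, right), with the median of each set as a line. Hdac1, Hdac2 and Hdac3 stand above the other members in the filled set, and the open points of the less abundant members lie at or near 0 except for 1 library of Hdac11.

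Hdac1 is a catalytic subunit of the NuRD, Sin3 and CoREST complexes, usually paired with Hdac2. Its level was even outside the 7 libraries. Over those 20 libraries it ranged from 67.7 to 226 CPM with a coefficient of variation of 34.2%, against a median of 50.1% for the 3692 tested genes with a mean of 30 to 300 CPM there. ABX ICH libraries had 92.7, 108 and 67.7 CPM at day 3 and 1.94, 0.596 and 226 CPM at day 7, against 149, 115 and 85.1 CPM in ABX sham. GF ICH libraries had 140, 76.4 and 91.4 CPM at day 3 and 100.3, 0.413 and 149 CPM at day 7, against 0.806, 153 and 124 CPM in GF sham. SPF ICH libraries had 158, 81.3 and 116 CPM at day 3 and 98.5, 134 and 79.3 CPM at day 7, against 84.9, 73.7 and 108 CPM in SPF sham. In 4 of the 27 libraries Hdac1 was under 2 CPM, all of them among the 7 with few detected genes, while the other 3 of those 7 lay at 100.3 to 153 CPM. Groups overlapped throughout, and each of the 8 neighbouring pairs in the order of group means overlapped. No comparison of Hdac1 had an unadjusted p under 0.05. Its smallest was 0.682, with adjusted p 0.814, in ABX ICH day 7 against sham (quasi-likelihood test of edgeR). The log2 fold change there was -0.61 ± 1.46 (SE). The spread in this fit includes the 4 libraries under 2 CPM, so these tests do not show equal levels. Without the 7 libraries, replicate 3 stood alone in ABX ICH day 7 and lay above day 3 by 1.09 on the log2 scale. Without ABX ICH day 7 replicate 3, the library at 226 CPM, Hdac1 in ABX ICH day 7 was lower than in sham (log2 fold change -6.53 ± 1.78 (SE), adjusted p 0.0471) and higher in GF than in ABX ICH day 7 (6.05 ± 1.74, adjusted p 0.0383), and the 2 ABX libraries left are both among the 7. With all libraries limma voom gave -3.99 ± 1.84 for the first of these (adjusted p 0.211).

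Reads of Hdac1 can be shared with 3 processed pseudogenes that match its transcript over 1444 to 1469 bases, namely Gm10093 on chromosome 17 (99.4% identity), Gm4864 on chromosome 12 (94.6%) and AC125456.1 on chromosome 18 (96.3%). Their counts made up 5.87% to 11.9% (median 8.16%) of the joint sum in the 23 libraries with at least 1000 Hdac1 counts. Adding them to Hdac1, an alternative chosen after seeing the data, changed no call.

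Hdac2 is the close paralog of Hdac1 and serves in the same complexes. It was the only member at 1 CPM or more in all 27 libraries, from 1.49 to 452 CPM. The 2 highest groups by mean were both ICH at day 7. ABX ICH libraries had 77.3, 54.3 and 32.4 CPM at day 3 and 452, 16.2 and 263 CPM at day 7, against 73.7, 80.8 and 35 CPM in ABX sham. GF ICH libraries had 49.1, 26.9 and 35.6 CPM at day 3 and 238, 151 and 94.6 CPM at day 7, against 1.49, 45.0 and 57.4 CPM in GF sham. SPF ICH libraries had 73.6, 25.6 and 41.0 CPM at day 3 and 64.5, 33.2 and 70.1 CPM at day 7, against 23.8, 90.1 and 42.2 CPM in SPF sham. All 3 GF ICH day 7 libraries lay above all GF sham and all GF ICH day 3 libraries, whereas in ABX mice the day 7 libraries lay on both sides of the other groups. In the order of group means, 7 of 8 neighbouring pairs overlapped, and the exception was GF ICH day 7 above ABX sham.

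Hdac2 passed no test after adjustment in edgeR. GF ICH day 7 gave a log2 fold change of 2.22 ± 1.02 (SE) against sham (adjusted p 0.136) and 2.12 ± 1.01 against day 3 (adjusted p 0.138). The share of all tested genes higher without overlap in GF ICH day 7 than at day 3 was 8.5%. ABX ICH day 7 gave 2.16 ± 1.01 against day 3 (adjusted p 0.234) and 2.12 ± 1.01 against SPF ICH day 7 (adjusted p 0.255). With limma voom and quality weights the GF value of day 7 against day 3 passed, with adjusted p 0.0400. Against ABX sham, ABX ICH day 7 gave 1.95 ± 1.01 (adjusted p 0.244, edgeR). Without the 7 libraries only replicate 3 remained in ABX ICH day 7. Hdac2 was then higher there on the log2 scale by 1.79 than in sham, 2.02 than at day 3 and 1.99 than in SPF ICH day 7.

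Hdac3 is the catalytic subunit of the NCoR and SMRT corepressor complexes. In the 20 libraries it had a coefficient of variation of 38.0%, even with ABX ICH day 7 replicate 3 far below the others. ABX ICH libraries had 35.6, 26.0 and 20.6 CPM at day 3 and 836, 130 and 2.99 CPM at day 7, against 54.9, 23.6 and 29.4 CPM in ABX sham. GF ICH libraries had 35.7, 29.6 and 18.1 CPM at day 3 and 55.8, 0.188 and 24.3 CPM at day 7, against 226, 23.8 and 26.8 CPM in GF sham. SPF ICH libraries had 34.5, 46.2 and 50 CPM at day 3 and 25.9, 34.6 and 32.8 CPM at day 7, against 35.9, 25.0 and 22.1 CPM in SPF sham. The 3 highest and 2 lowest values lay in ABX ICH day 7, GF ICH day 7 and GF sham, and 4 of those 5 were among the 7 libraries with few detected genes.

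The direction of Hdac3 in ABX ICH day 7 turned with the choice of libraries. With all 3 libraries its log2 fold change was 3.17 ± 1.37 against sham (adjusted p 0.212), 3.56 ± 1.39 against day 3 (adjusted p 0.197) and 3.38 ± 1.38 against SPF ICH day 7 (adjusted p 0.230) in edgeR. Without the 7 libraries, replicate 3 stood alone, and the values were -3.86, -3.44 and -3.63. The difference of the ABX response from the SPF response at day 7 was then -4.03. These values rest on 1 library of ABX ICH day 7, which has no spread of its own. GF ICH day 7 against ABX ICH day 7 gave -3.59 ± 1.40 (adjusted p 0.118), and GF ICH day 3 against sham gave -1.73 ± 1.296 (adjusted p 0.859), which became 0.05 without the 7 libraries.

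**Figure D3:**
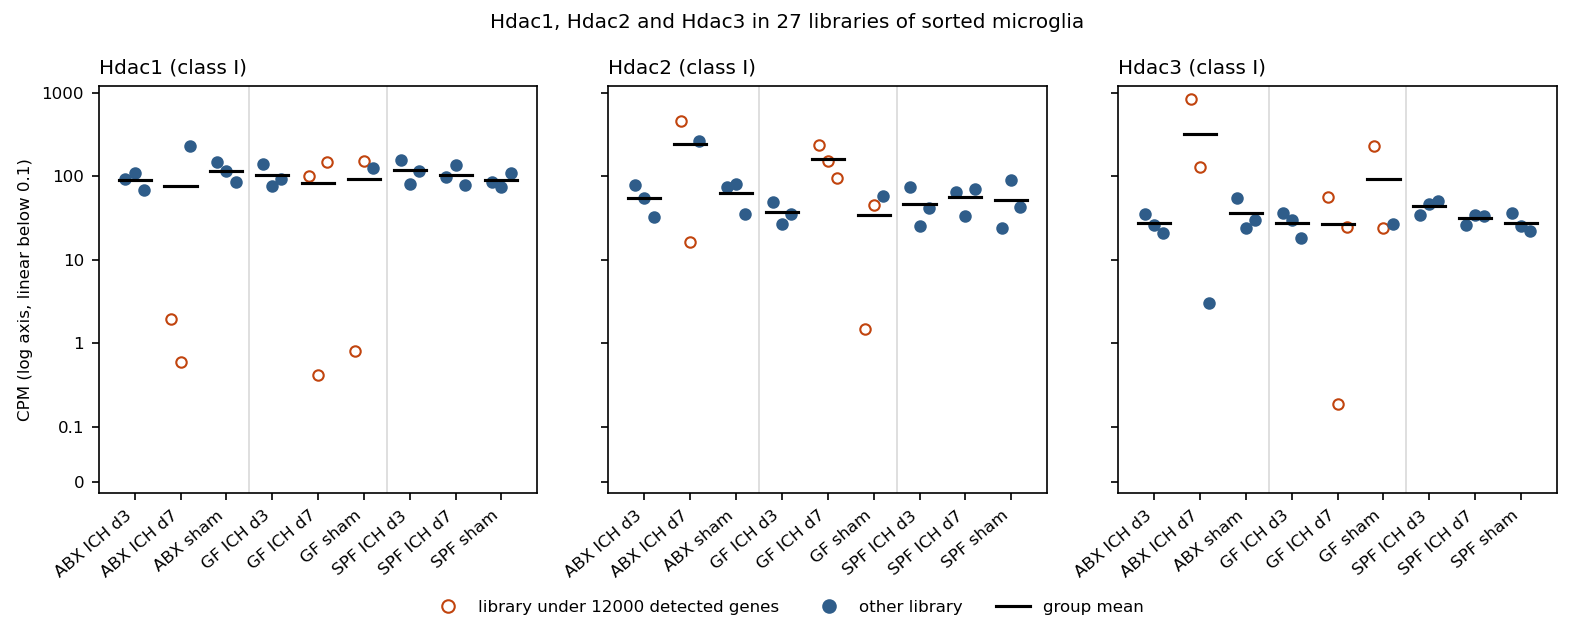
CPM (log axis, linear below 0.1) of Hdac1, Hdac2 and Hdac3 in 3 libraries of each of 9 groups, open where the library had under 12000 detected genes, with the group mean as a line. The filled points of Hdac1 lie between 67.7 and 226 CPM in every group that has them, and the open points of all 3 genes spread from 0.188 to 836 CPM.

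Hdac8, a class I enzyme that works outside these complexes and deacetylates the cohesin subunit Smc3, was less abundant. It was at 1 CPM or more in 18 of the 20 libraries and in none of the 7. ABX ICH day 7 libraries had 0.237, 0 and 0.420 CPM, against 20.2, 12.9 and 12.6 CPM in ABX sham, and replicate 3, which is not one of the 7 libraries, was also under 1 CPM. Its log2 fold change there was -6.11 ± 2.59, with adjusted p 0.209 in edgeR. In GF ICH day 7 the libraries had 0, 0.0752 and 0.126 CPM, against 12.8, 3.76 and 2.76 CPM in GF ICH day 3 and 0, 6.65 and 6.18 CPM in SPF ICH day 7. The GF day 7 libraries lay below all day 3 libraries, with a log2 fold change of -6.54 ± 2.64 (adjusted p 0.0890), and overlapped those of SPF ICH day 7, with -5.95 ± 2.57 (adjusted p 0.117). GF sham against ABX sham gave -2.72 ± 2.20 (adjusted p 0.852).

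Among class IIa members Hdac9, which lacks strong catalytic activity like the rest of its class and acts with Mef2 transcription factors, carried the clearest differences of the family. It was lower in GF ICH day 7 than in GF ICH day 3 and than in SPF ICH day 7, and the libraries did not overlap in either comparison. GF ICH day 7 libraries had 0, 0.207 and 0 CPM (0, 11 and 0 counts), against 11.9, 26.1 and 11.4 CPM (685, 1748 and 644 counts) in GF ICH day 3. SPF ICH day 7 libraries had 24.4, 14.3 and 6.28 CPM (1285, 858 and 384 counts), and GF sham libraries had 0.927, 0 and 7.59 CPM. All 3 GF day 7 libraries were therefore below the lowest library of either group, while GF sham overlapped them.

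Hdac9 fell by 7.84 ± 2.44 on the log2 scale in GF ICH day 7 against GF ICH day 3 (adjusted p 0.0328), and it fell by 7.71 ± 2.43 against SPF ICH day 7 (adjusted p 0.0381), in the edgeR fit. Of all tested genes, 13.4% were called lower in the day 7 against day 3 comparison, and 11.8% against SPF, while 32.6% were lower than at day 3 without overlap. The median log2 fold change of all tested genes was -2.49 and -1.56 in these comparisons. Against GF sham Hdac9 gave -5.31 ± 2.18 (adjusted p 0.0999), and against ABX ICH day 7 it gave -7.62 ± 2.42 (adjusted p 0.0577). The ABX ICH day 7 mean rests on replicate 3 at 41.9 CPM. Leaving out 1 library gave adjusted p 0.0271 to 0.668 in edgeR for that comparison, and limma voom with all libraries gave 0.358. The call against day 3 held in 22 of 27 fits that left out 1 library, and it was lost without GF ICH day 3 replicate 1, 2 or 3, or without GF ICH day 7 replicate 1 or 3 (adjusted p up to 0.102). The call against SPF held in 11 of 27 (adjusted p 0.0209 to 0.117), was lost among others without any one SPF ICH day 7 library, and had adjusted p 0.0530 with a replicate block.

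Low Hdac9 went with the number of detected genes. It was at 2.64 to 41.9 CPM in all 20 libraries with more detected genes and at 0 to 0.927 CPM in all 7 others, including ABX ICH day 7 replicates 1 and 2 at 0.190 and 0.361 CPM beside replicate 3 at 41.9 CPM. Of 1277 tested genes with a mean of 10 to 30 CPM in the 20 libraries and at least 1 CPM in each of them, 59 (4.62%) were likewise under 1 CPM in all 7. Since all 3 GF ICH day 7 libraries are among the 7, the group and the low number of detected genes cannot be told apart, and the comparison could not be fitted without them. Other cell markers moved too, in both directions. Summed CPM of 8 monocyte markers was 718 to 2154 in GF ICH day 7, against 46.1 to 241 in GF ICH day 3 and 54.6 to 169 in SPF ICH day 7, and 3 and 4 of the 8 were higher without overlap in these comparisons, with 1 and 2 called. Summed CPM of 8 neutrophil markers was 919 to 3458 in GF ICH day 7 with Mmp9 at 0, against 158 to 290 in GF ICH day 3 and 104 to 124 in SPF ICH day 7, and 3 of the 8 were higher without overlap in each, with 0 and 1 called, while 1 was lower without overlap than at day 3. Of all tested genes, 8.5% were higher and 32.6% lower without overlap than at day 3, and 7.19% higher and 24.4% lower than in SPF ICH day 7. Other lists had 0 markers higher without overlap. Lower without overlap than at day 3 were 3 of 7 border macrophage, 4 of 8 T and NK cell and 3 of 8 neuron markers. So were 2 of 8 oligodendrocyte, 2 of 8 astrocyte and 2 of 8 endothelial markers. Against SPF ICH day 7 these numbers were 4, 0, 0, 2, 1 and 1. The part of any marker list in the Hdac9 result was not tested. Summed CPM of the microglia markers in GF ICH day 7 was 45870 to 74110, against 28470 to 48970 in GF ICH day 3, and its members went both ways, with 3 of 10 higher and 4 lower without overlap, and 3 called higher and 4 called lower.

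At day 3, Hdac9 lay above sham without overlap in ABX and GF mice. ABX ICH day 3 libraries had 20.4, 24.1 and 27.2 CPM, against 8.26, 10.6 and 4.03 CPM in ABX sham. SPF ICH day 3 libraries had 15, 2.64 and 26.3 CPM, against 13.5, 3.77 and 22.6 CPM in SPF sham. GF ICH day 3 libraries had 11.9, 26.1 and 11.4 CPM, against 0.927, 0 and 7.59 CPM in GF sham. GF sham replicates 1 and 2, at 0.927 and 0 CPM, are among the 7 libraries with few detected genes. The log2 fold change against sham was 1.65 ± 1.85 in ABX and 2.53 ± 1.91 in GF mice (unadjusted p 0.382 and 0.197, edgeR). Over all tested genes and 18 pairwise comparisons, 17.4% of pairs did not overlap. No Hdac9 comparison outside GF ICH day 7 had an unadjusted p under 0.05 in edgeR. All 8 neighbouring pairs in the order of Hdac9 group means overlapped, from 23.9 ± 3.46 CPM in ABX ICH day 3 to 0.0689 ± 0.119 CPM in GF ICH day 7 (SD, n = 3 each).

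**Figure D4:**
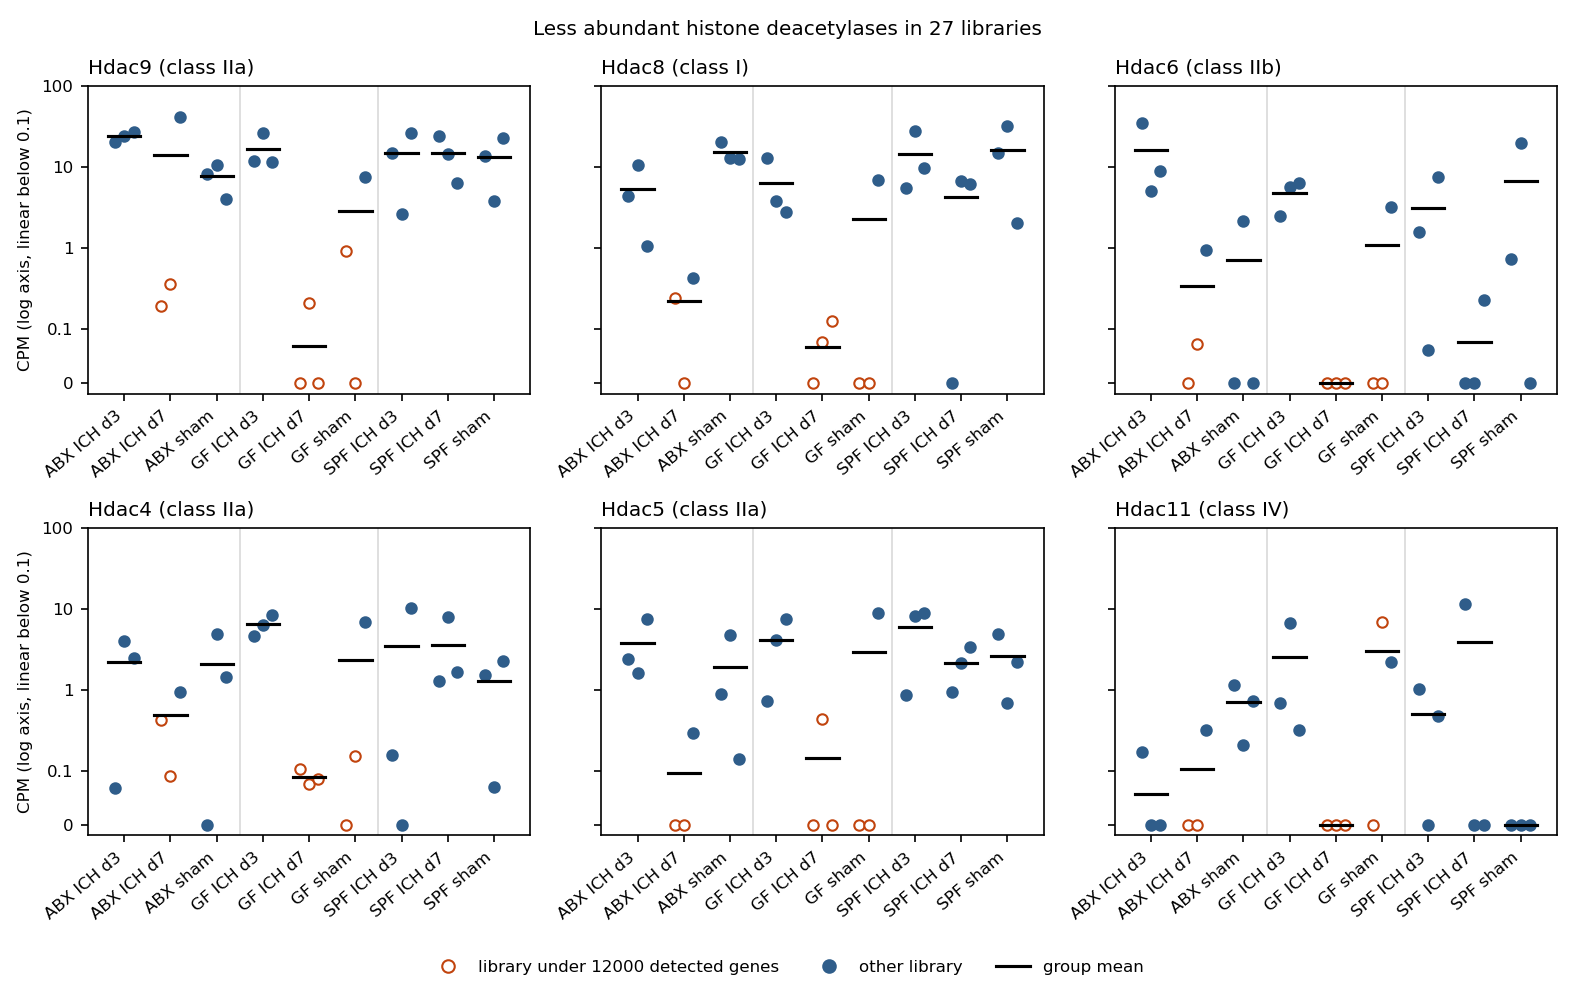
CPM (log axis, linear below 0.1) of Hdac9, Hdac8, Hdac6, Hdac4, Hdac5 and Hdac11 in 3 libraries of each of 9 groups, open where the library had under 12000 detected genes, with the group mean as a line. Hdac9 lies at 2.64 CPM or more in every filled point and under 1 CPM in every open one, and Hdac11 is at 0 in all 3 libraries of GF ICH day 7 and of SPF sham.

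Hdac4 and Hdac5, class IIa corepressors of Mef2 targets, were near the limit of detection. Hdac4 ranged from 0 to 10.2 CPM and was at 1 CPM or more in 14 of 27 libraries, and Hdac5 ranged from 0 to 8.87 CPM and reached 1 CPM in 13. Hdac4 had 0.105, 0.0752 and 0.0841 CPM in GF ICH day 7, against 4.58, 6.22 and 8.47 CPM in GF ICH day 3, with no overlap. Its log2 fold change was -6.15 ± 2.84, with adjusted p 0.128 in edgeR. No comparison of Hdac5 had an unadjusted p under 0.05, and its smallest was 0.0678, in ABX ICH day 7 against day 3. Hdac7, known for roles in thymocytes and endothelium, had 89 counts in all libraries together, was at 0 in 21 of 27, reached 1 CPM in 1 and was not tested. Its locus overlaps Slc48a1 on the other strand, and a strand setting for the counting is not given in the sources used here.

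Hdac6, the tubulin deacetylase, was at 0 in 11 of 27 libraries. It was at 0 in all 3 GF ICH day 7 libraries, against 2.46, 5.69 and 6.31 CPM in GF ICH day 3 and 0, 0 and 3.24 CPM in GF sham. Set against 3 counts per library in place of 0, GF ICH day 7 was at least 79.1-fold lower than day 3 (adjusted p 0.0707, edgeR) and at least 17.7-fold lower than sham (adjusted p 0.115), and the second of these rests on 1 sham library. ABX ICH day 3 libraries had 34.8, 5.03 and 8.84 CPM, against 0, 2.14 and 0 CPM in ABX sham, with no overlap. The log2 fold change was 4.50 ± 3.13 (adjusted p 0.824) in edgeR and 6.70 ± 1.91 in limma voom (adjusted p 0.0420). SPF ICH day 7 against day 3 gave -5.29 ± 3.26 (adjusted p 1.00) in edgeR.

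Hdac11, which removes long fatty acyl groups from lysine as well as acetyl groups, was at 0 in 14 of 27 libraries and had 1856 counts in all. Its difference of responses between GF and SPF mice at day 7 passed the test. GF ICH day 7 libraries were all at 0, against 0, 6.91 and 2.18 CPM in GF sham. SPF ICH day 7 libraries had 11.5, 0 and 0 CPM, against 0 in all 3 SPF sham libraries. Each response thus rests on 1 or 2 libraries with reads, and with 2 of 4 groups at 0 no fold is given. All GF ICH day 7 libraries and GF sham replicates 1 and 2 had few detected genes. For GF ICH day 7, group and number of detected genes cannot be told apart. The adjusted p of the difference was 0.0351 in edgeR, and 7.04% of all tested genes were called in it. It passed in 19 of 27 fits that left out 1 library. Leaving out SPF ICH day 7 replicate 1, GF sham replicate 2, or any 1 library of GF ICH day 7 or SPF sham ended the call, with adjusted p up to 1.00, and it had adjusted p 0.0563 with a replicate block and 0.107 in limma voom.

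Reads in all 3 libraries were found in 2 groups, ABX sham and GF ICH day 3 (0.679, 6.66 and 0.318 CPM). Against SPF sham at 0, SPF ICH day 3 was at least 10.7-fold higher (adjusted p 0.659) and SPF ICH day 7 at least 82.4-fold higher by its mean (adjusted p 0.897). ABX sham, with 1.15, 0.204 and 0.733 CPM, was at least 15-fold higher than SPF sham (adjusted p 1.00), and GF sham at least 65.3-fold (adjusted p 0.671). GF ICH day 7 was at least 49.8-fold lower than GF sham (adjusted p 0.0935), at least 41.9-fold lower than GF ICH day 3 (adjusted p 0.0916) and at least 62.9-fold lower than SPF ICH day 7 (adjusted p 0.0917). All these bounds are on group means. The SPF ICH day 7 mean rests on 1 library with reads, and 446 of the 503 counts of GF ICH day 3 lay in replicate 2. GF ICH day 3 against ABX ICH day 3 gave a log2 fold change of 5.44 ± 3.42, and the other comparisons at day 3 gave 2.36 ± 2.98 for GF against SPF and -3.08 ± 3.06 for ABX against SPF (adjusted p 1.00 in each, edgeR). The remaining differences of responses had adjusted p 0.812 for ABX at day 3, 0.369 for ABX at day 7 and 0.887 for GF at day 3. Hdac11 overlaps Gm14573, an antisense gene, and without a known strand setting their reads cannot be told apart.

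Over the family, edgeR called 3 of 198 member-by-comparison pairs, all lower, and 2.65% of all such pairs of the 17573 tested genes. Unadjusted p was under 0.05 in 28 pairs (14.1%), 11 higher and 17 lower, against 13.4% of pairs over all genes. In 162 pairs of 2 groups, 27 (16.7%) did not overlap, against 17.4% over all genes. These shares are near the background. Counts over members include genes that passed the filter on low counts only through the groups where they were high, and so they support nothing by themselves.

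For ICH against sham, 0 of 54 pairs passed in edgeR, 8 had an unadjusted p under 0.05, and 10 passed in DESeq2 and 1 in limma voom. Of all genes 2.61%, 13.3%, 14.5% and 3.15% of pairs did so. For day 7 against day 3 after ICH, 1 of 27 pairs passed in edgeR (background 5.33%), 8 had an unadjusted p under 0.05 (background 20%), and 9 passed in DESeq2 and 4 in limma voom (background 23.4% and 10.3%). For ABX or GF against SPF, 1 of 54 passed in edgeR (background 2.16%), 7 had an unadjusted p under 0.05 (background 11.8%), and 9 passed in DESeq2 and 1 in limma voom (background 12.9% and 3.84%). For GF against ABX, 0 of 27 passed in edgeR (background 2.23%), 2 had an unadjusted p under 0.05 (background 11.3%), and 4 passed in DESeq2 and 0 in limma voom (background 12.8% and 0.499%). For the differences of responses, 1 of 36 passed in edgeR (background 1.76%), 3 had an unadjusted p under 0.05 (background 12.3%), and 6 passed in DESeq2 and 0 in limma voom (background 11.4% and 1.38%). The DESeq2 counts include Hdac11 and Hdac6 in comparisons where a whole group was at 0.

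Medians of the 9 tested members lay below those of all tested genes in the 4 comparisons of GF ICH day 7. The member median log2 fold change was -4.71 against sham, -6.15 against day 3 and -5.20 against SPF ICH day 7, where the medians of all tested genes were -2.10, -2.49 and -1.56. With Hdac6 and Hdac11, at 0 in all GF ICH day 7 libraries, set at their bounds, the member medians were -4.34, -5.39 and -3.87. In each of the 3, 8 of 9 members were below 0, and Hdac2 was the one above. The -5.20 is the value of Hdac6, which averaged 0.0763 CPM in SPF ICH day 7. All GF ICH day 7 libraries had few detected genes, and the median of all genes was not matched to the members by level. These medians also include members that passed the filter only through groups where they were high, so they support nothing by themselves. Against ABX ICH day 7 the member median was -2.44 and that of all genes -0.44, with 7 of 9 members below 0, among them Hdac2 at -0.60, and with Hdac1 (0.13) and Hdac5 (0.56) above 0. In SPF mice the member medians were 0.41 at day 3 and 0.17 at day 7 against sham, where those of all genes were -0.07 and -0.03.

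**Figure D5:**
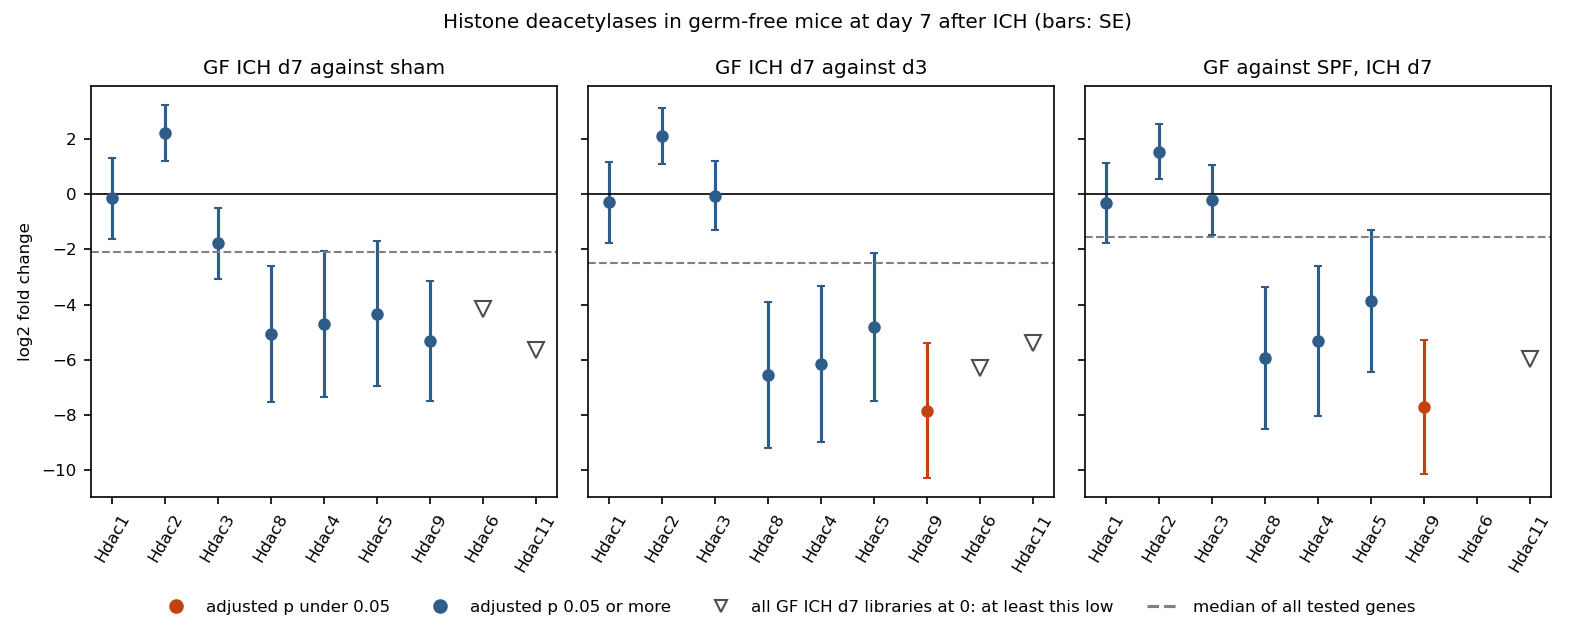
Log2 fold change of 9 members in GF ICH day 7 against sham, against day 3 and against SPF ICH day 7 (points, with SE bars), with a lower bound on the size (open triangles) where all GF ICH day 7 libraries were at 0, and the median of all tested genes as a dashed line; Hdac6 is left out of the third panel because both groups were near the floor of 3 counts. Hdac9 is the member past adjusted p 0.05 (red), at -7.84 against day 3 and -7.71 against SPF, and Hdac2 is the one above 0 in all 3 panels.

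Partners of these enzymes were described from lists chosen with earlier results of these data known. Across 8 lists and 22 comparisons edgeR called 86 of 1738 gene-by-comparison pairs, 4 higher and 82 lower, and all 86 lay in the 5 comparisons that include GF ICH day 7. Of the calls over all genes, 96.4% lay there too. By list, the share of pairs called was 4.13% for NuRD, 4.17% for Sin3, 6.36% for CoREST and MiDAC and 8.33% for NCoR and SMRT. It was 3.25% for sirtuins, 4.55% for histone acetyltransferases, 10.6% for bromodomain readers and 4.01% for class IIa partners, beside the 2.65% of all genes. The bromodomain list holds 3 genes. The share of all genes was not matched to the lists by level, and the lists were not chosen blind, so these shares support nothing by themselves.

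In the NuRD complex Mta2, a scaffold subunit, averaged 0.190 ± 0.0546 CPM in GF ICH day 7, against 48.98 ± 2.15 CPM in GF ICH day 3 (SD, n = 3 each), and fell by 7.99 ± 1.62 on the log2 scale (adjusted p 0.00318). It also fell against GF sham (adjusted p 0.00141), as did Chd4, the remodelling ATPase (adjusted p 0.00239). Brms1, a Sin3-associated protein, was at 0 in all GF ICH day 7 libraries, against 35.1 to 47.9 CPM in GF ICH day 3 (adjusted p 0.00668), 17.2 to 33.0 CPM in SPF ICH day 7 (adjusted p 0.0103) and 0 to 63.0 CPM in GF sham (adjusted p 0.00725). These libraries did not overlap except for Brms1 against sham.

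Of the complexes that Hdac3 serves in, 2 subunits were named. Tbl1x, an exchange factor of NCoR and SMRT, averaged 0.336 ± 0.0719 CPM in GF ICH day 7, against 46.6 ± 10.7 CPM in GF ICH day 3 (adjusted p 0.00542) and 63.2 ± 76.5 CPM in GF sham (adjusted p 0.00344). Gps2, another subunit, averaged 0.562 ± 0.645 CPM in GF ICH day 7, against 71.9 ± 27.9 CPM in GF ICH day 3 (adjusted p 0.00518). Hdac3 itself had 55.8, 0.188 and 24.3 CPM in the same GF ICH day 7 libraries.

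Of the other lists, Sirt2, an NAD-dependent deacetylase, averaged 0.661 ± 0.919 CPM in GF ICH day 7, against 123 ± 2.64 CPM in GF ICH day 3 (adjusted p 0.00518), and was lower than in GF sham (adjusted p 0.00468) and ABX ICH day 7 (adjusted p 0.00696). The acetyltransferase Kat2a was at 0 in GF ICH day 7, against 5.91 to 139.6 CPM in GF sham (adjusted p 0.00567), with adjusted p 0.0209 for the difference from the SPF response. Kat6a averaged 0.105 ± 0.117 CPM in GF ICH day 7, against 40.2 ± 59.7 CPM in ABX ICH day 7 (adjusted p 0.0194). The acetyl-lysine reader Brd3 averaged 0.0125 ± 0.0217 CPM in GF ICH day 7, against 39.7 ± 68.3 CPM in ABX ICH day 7 (adjusted p 0.0236), with no overlap.

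Class IIa partners were named by the rule. Camk1, a kinase that phosphorylates class IIa proteins, averaged 303 ± 240.1 CPM in GF ICH day 7, against 1856 ± 1416 CPM in ABX ICH day 7, and fell by 2.61 ± 0.50 on the log2 scale (adjusted p 0.00406). Sik2, another such kinase, averaged 0.106 ± 0.0925 CPM in GF ICH day 7, against 90.6 ± 92.5 CPM in GF sham (adjusted p 0.00687). Ywhag, a 14-3-3 protein, averaged 0.0376 ± 0.0651 CPM in GF ICH day 7, against 68.5 ± 115.8 CPM in GF sham (adjusted p 0.00890). The GF ICH day 7 libraries lay below the others in each of the 3 comparisons. All adjusted p-values of partners are from the edgeR fit over all genes.

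The genes with the most similar pattern to each abundant member were taken from the root mean square difference of log2 CPM over the 9 group means, each centred on its own mean. For Hdac1 they were Vdac1 at 0.24, Srprb at 0.26 and Samm50 at 0.28, where the Hdac1 means span 4.12 on that scale. For Hdac2 they were Dpy30 at 0.16, Dynll1 at 0.17 and Ndufb3 at 0.175, with a span of 3.25. For Hdac3 they were Eif3h at 0.28, Gm7774 at 0.29 and Metap2 at 0.30, with a span of 3.36. These values describe 9 means that share libraries and carry no test.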

How the data were processed

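Microglia sorted from tissue around the hematoma were sequenced in 27 libraries of 9 groups, taken from the labels. Per the labels' protocols, low-input SMART-Seq v4 libraries were read in pairs of 150 bases. Trimming, alignment and assembly tools in the submitters' processing notes are cutadapt 1.9, HISAT2 2.0.4 and StringTie 1.3.4d, with edgeR and the mm10 build, and annotation release, strand setting and mate counting are not given in the sources used here. The deposited values are whole-number counts per gene, per the file headers and values, not normalized by the authors. All 27 columns were used.

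From these counts, 17573 genes holding 99.9% of counts passed filterByExpr in edgeR 4.0.16 (R 4.3.3) and scaled by TMM (factors 0.476 to 1.31). A single quasi-likelihood fit over 9 group means, which share 1 estimate of spread (biological coefficient of variation 1.54), gave 22 comparisons, with p adjusted over all tested genes by Benjamini-Hochberg at 0.05. Symbols, coordinates, overlaps and exon lengths are from GENCODE M21, which names 52073 of 56691 identifiers. Near copies came from BLAST 2.17.0 (at least 500 bases at 90% identity). A group at 0 was given 3 counts per library to bound a fold, which covers counting error only.

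The members and lists were chosen with earlier results of these data known. All members are described by level. Tests are given for member-by-comparison pairs with an unadjusted p under 0.05, or else for the smallest p of a comparison. For each list up to 3 called pairs with the smallest p are named, and 3 alike genes for each of the 3 members highest per kilobase. Some pairs chosen by this rule are not reported here. Same-numbered libraries did not deviate together: 0 of 36 group pairs had all 3 correlations over 0.1 (median 0.007), so replicate numbers pair nothing. Alternatives were DESeq2 1.42.0, limma 3.58.1 voom with quality weights, DESeq2 size factors, no low-count filter, a replicate block, GC offsets (spline with 6 degrees of freedom), both together, leaving out the 7 libraries under 12000 detected genes, and leaving out each library. Summing Hdac1 with its near copies was added after seeing the data.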

Additional observations from a re-analysis of the deposited data

Results flagged for a closer look

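The difference between GF and SPF libraries in the Hdac11 response to ICH at day 7 passed the test (adjusted p 0.0351, quasi-likelihood test of edgeR). In the same test 7.04% of all tested genes were called. GF ICH day 7 libraries were at 0 in all 3, against 0, 6.91 and 2.18 CPM in GF sham, and SPF ICH day 7 libraries had 11.5, 0 and 0 CPM, against 0 in all 3 SPF sham libraries. The reads of Hdac11 in SPF ICH day 7 came from 1 library, and adjusted p was 1.00 without it. The call held in 19 of 27 fits that left out 1 library, and adjusted p was 0.0576 with GC offsets in edgeR. All GF ICH day 7 libraries and GF sham replicates 1 and 2 had few detected genes. For GF ICH day 7, group and number of detected genes cannot be told apart.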

How the results depend on the processing

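DESeq2 called more member-by-comparison pairs than edgeR, with 10 against 0 for ICH against sham, 9 against 1 for day 7 against day 3, 9 against 1 for ABX or GF against SPF, 4 against 0 for GF against ABX, and 6 against 1 for the differences of responses. Of the pairs of all genes, DESeq2 called 14.5%, 23.4%, 12.9%, 12.8% and 11.4% in these families. Its member calls include Hdac11 and Hdac6 in comparisons where a whole group was at 0. Log2 values there, such as -56.2 for Hdac11, are not usable as folds. Limma voom called 1 pair for ICH against sham, 4 for day 7 against day 3 and 0 differences of responses. It called 3.15%, 10.3% and 1.38% of the pairs of all genes there. Without a filter on low counts, 0 pairs passed for ABX or GF against SPF. GC offsets gave 1 call for GF against ABX and 0 differences of responses. With the replicate block, although the numbers pair nothing, 0 pairs passed for ABX or GF against SPF (Hdac9 adjusted p 0.0530) and 0 differences of responses (Hdac11 adjusted p 0.0563), and the 1 call for day 7 against day 3 held (Hdac9 adjusted p 0.0444). Block and GC offsets together gave 0 differences of responses. Without the 7 libraries of few detected genes ABX ICH day 7 kept 1 library, and the GF ICH day 7 comparisons could not be fitted. Leaving out 1 library at a time gave 0 to 1 calls in each of the 5 families. In the fit without ABX ICH day 7 replicate 3 the calls for ICH against sham and GF against ABX were both Hdac1. Shares of all genes called are given only for the main edgeR fit, DESeq2 and limma voom, so calls under other settings have no background here.

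Hdac3 changed direction without the 7 libraries, to -3.86 in ABX ICH day 7 against sham, -3.44 against day 3, -3.63 against the SPF libraries of day 7, and to 0.05 for GF ICH day 3 against sham, where leaving out 1 library gave -2.18 to 0.14, the highest without GF sham replicate 1. Leaving out 1 library gave adjusted p 0.822 to 1.00 for Hdac11 in SPF ICH day 7 against sham, 0.0841 to 1.00 for Hdac11 in GF against SPF mice after ICH at day 7, and 0.11 to 1.00 for Hdac6 in GF ICH day 7 against sham. The values of 1.00 came without SPF ICH day 7 replicate 1 or GF sham replicate 3, which left both groups at 0. Of 1280 recomputed values of 36 named pairs, 1204 kept direction and call. Only 3 of these pairs were called in the main fit. The call of Hdac9 in GF ICH day 7 against day 3 held in 30 of 35 alternatives. That of Hdac9 against SPF ICH day 7 held in 17 of 35. The Hdac11 difference of GF and SPF responses at day 7 was called in 23 of 35. DESeq2 size factors moved the median of all genes by up to -0.529 on the log2 scale, in GF ICH day 7 against sham. The causes were not tested. Hdac4, Hdac5, Hdac6, Hdac7 and Hdac11 had medians over 27 libraries of 0 to 1.27 CPM, and the part of depth in their tests was not tested.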
